A study of Canis lupus familiaris with 186 samples.

Results

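The genes of transforming growth factor beta (TGF-beta) and bone morphogenetic protein (BMP) signalling were described in primary tumors of pet dogs with osteosarcoma, a malignant tumor of bone. The members were found by a rule on gene names, chosen with earlier results of these data known. They are the rows of the count table named BMP, BMPR, GDF, TGFB, TGFBR, INHB, ACVR or SMAD with a number or letter, together with secreted inhibitors such as NOG, GREM1, CHRD and FST. This gave 49 of 37952 genes, and 35 of the 49 were among the 13422 genes that passed a filter on low counts. The dogs were privately owned, varied in age, breed and sex, and carried appendicular osteosarcoma with no macroscopic metastasis. Tumor was biopsied before any treatment, and mRNA was sequenced in 1 library per dog. The only grouping that the sample labels give is the trial, with 93 dogs from COTC021 and 93 from COTC022. No normal bone and no treated tumor is among the samples, so levels are compared between dogs and not with a control.

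Ligands of this family are secreted dimers that bring together type I and type II receptor kinases on the cell surface. TGF-beta and activin receptors mainly act through SMAD2 and SMAD3, and BMP receptors through SMAD1, SMAD5 and SMAD9, with SMAD4 as the shared partner and SMAD6 and SMAD7 as inhibitors within the cell. BMPs are known for inducing bone and cartilage, and TGF-beta is stored in large amounts in bone matrix and released when bone is resorbed.

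Libraries held 6587631 to 27420857 counts, the median library 10797162. Names of 50 libraries are written with a doubled separator in the deposited table, and these are called the marked libraries here. Their median total was 19440450 counts, against 9851681 in the other 136, and they hold 18 dogs from COTC021 and 32 from COTC022. Comparisons were therefore repeated within each trial and each of these groups of libraries. Levels are given as counts per 1000000 counts of the library (CPM). They are not divided by gene length, so they compare dogs for the same gene and not the members with each other. A count of 0 allows up to 0.109 CPM in the largest library and 0.455 CPM in the smallest, taking 3 counts as the limit for counting error alone. The tumors also differed in their makeup. The summed level of 8 osteoblast markers ran from 67.7 to 17225 CPM with a median of 2188, that of 12 cartilage markers from 12.1 to 77940 CPM with a median of 587, and that of 10 endothelial markers from 92.2 to 3193 CPM with a median of 617. Among all marker lists only MATN1 of the cartilage list and MS4A1 of the leukocyte list were at 0 in most dogs. Markers of skeletal muscle, which can enter a biopsy, summed to 2.78 to 74093 CPM. In bulk tissue, fewer cells of a type and less RNA per cell cannot be told apart.

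All 3 TGF-beta genes were detected in every dog. TGFB1, the form abundant in bone matrix, ranged from 23.1 CPM in the lowest dog to 572 in the highest, with a median of 139. TGFB2 ranged from 2.11 to 201 CPM with a median of 26.9, and TGFB3 from 3.46 to 443 CPM with a median of 89.4. TGFB3 was the more variable, with an SD of 1.28 on the log2(CPM + 2) scale against 0.80 for TGFB1. INHBA and INHBB encode the beta subunits of activins. INHBA had a median of 50.9 CPM, and its range from 0.808 to 447 reached its top in a single dog, since the next dog had 252. INHBB ranged from 0.412 to 115 CPM with a median of 10.1. Both activin genes reached 10 counts in nearly all dogs, 185 for INHBA and 184 for INHBB.

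Of 18 BMP and growth differentiation factor (GDF) ligands, 7 passed the filter. BMP2 and BMP4, both inducers of bone, had medians of 18.5 CPM (range 1.70 to 93.3) and 74.8 CPM (range 0.447 to 347). BMP6, known also for its part in iron regulation, ranged from 5.02 to 335 CPM with a median of 39.5. GDF11, a close relative of myostatin, was the steadiest of the ligands that passed, from 2.72 to 65.6 CPM with a median of 21.2 and an SD of 0.60. BMP3, which opposes the bone-forming BMPs, and BMP5, a ligand of skeletal development, were each at 0 in some tumors and high in others. BMP3 ranged from 0 in 9 dogs to 138 CPM with a median of 4.32, and BMP5 from 0 in 13 dogs to 98.4 CPM with a median of 1.57. The joint-forming ligand GDF6 ranged from 0 in 10 dogs to 53.1 CPM with a median of 1.68.

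The other 11 ligands did not pass. BMP7, which can also induce bone, had a median of 0.582 CPM, yet reached 36.9 CPM in its highest dog and 10 counts in 78 dogs. GDF10, the closest relative of BMP3, had a median of 0.312 CPM and a highest value of 82.5, against 25.4 in the next dog. GDF9, an oocyte growth factor, was low but widespread, with 89 dogs at 10 counts and a highest value of 3.64 CPM. For GDF2 and GDF5 1 dog each, not the same, held nearly as much of the summed CPM as all others together or slightly more. For GDF2, a circulating ligand of endothelial cells, the share of the highest dog was 50.1%, with 26.6 CPM against 5.68 in the next dog. For GDF5, which is needed for joint formation, the share was 49.2%, with 39.6 CPM against 7.53. GDF1 and GDF15 had medians of 0.057 and 0.053 CPM and reached at most 1.15 and 2.45 CPM. BMP10, BMP15, GDF3 and GDF7 were at 0 in 160, 184, 180 and 178 dogs, and none of them reached 10 counts in any dog.

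The type I and type II receptors that passed had SDs from 0.50 to 0.74, within a narrower band than the 0.60 to 1.57 of the TGF-beta, activin, BMP and GDF ligands. Among type I receptors, TGFBR1, the signalling receptor for TGF-beta, ranged from 38.5 to 563 CPM with a median of 130.0. ACVR1, a BMP receptor whose activating mutations cause ectopic bone in people, ranged from 11.6 to 267 CPM with a median of 75.7. ACVRL1, known from endothelial cells, ranged from 10.3 to 144 CPM with a median of 45.8. BMPR1A ranged from 1.71 to 74.4 CPM (median 18.8) and the activin receptor ACVR1B from 5.83 to 63.6 CPM (median 15.9). BMPR1B and ACVR1C did not pass the filter, with medians of 0.152 and 0.371 CPM and highest values of 8.00 and 17.2. All 4 type II receptors passed. TGFBR2, which binds TGF-beta, ranged from 61.7 to 1324 CPM with a median of 280.5, and BMPR2 from 44.0 to 847 CPM with a median of 131, where the second-highest dog had 307. The activin receptors ACVR2A and ACVR2B had medians of 9.59 CPM (range 2.87 to 35.1) and 5.16 CPM (range 0.660 to 36.5). TGFBR3, a co-receptor that presents TGFB2 to the kinases, spread more widely than any of them, from 3.25 to 841 CPM around a median of 33.4, with an SD of 1.45.

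The SMADs reached 10 counts in every dog, and 3 of them had the lowest SDs of the members tested. SMAD4 had an SD of 0.35, at percentile 5.27 among all genes tested, with levels from 13.6 to 185 CPM around a median of 86.3. SMAD2 and SMAD5 followed, with SDs of 0.40 and 0.44, medians of 79.9 and 77.0 CPM, and ranges from 36.7 to 266 and from 17.5 to 161 CPM. SMAD1 ranged from 20.6 to 141 CPM with a median of 61.6, SMAD9 from 4.30 to 124 CPM with a median of 34.9, and SMAD3 from 1.27 to 36.1 CPM with a median of 10.8. The inhibitory SMAD6 and SMAD7, which are themselves induced by the pathway, ranged from 1.94 to 40.3 CPM (median 13.7) and from 3.89 to 65.4 CPM (median 18.3).

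Secreted inhibitors included some of the widest ranges. FST, which binds activins, had the highest SD of all members, 1.70, with 0 in 1 dog, a median of 5.73 CPM and a highest value of 378. GREM1, which binds BMPs, ranged from 0.298 to 189 CPM with a median of 10.1 and an SD of 1.40. CHRD, another BMP antagonist, ranged from 0.470 to 68.6 CPM with a median of 7.84. NOG, which binds BMP2 and BMP4 tightly, was low throughout, from 0 in 4 dogs to 7.42 CPM with a median of 1.40, and reached 10 counts in 128 dogs. BMP1 shares the name of the ligands but is a metalloprotease that cleaves procollagen and CHRD. It ranged from 19.0 to 804 CPM with a median of 235.

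**Figure D1:**
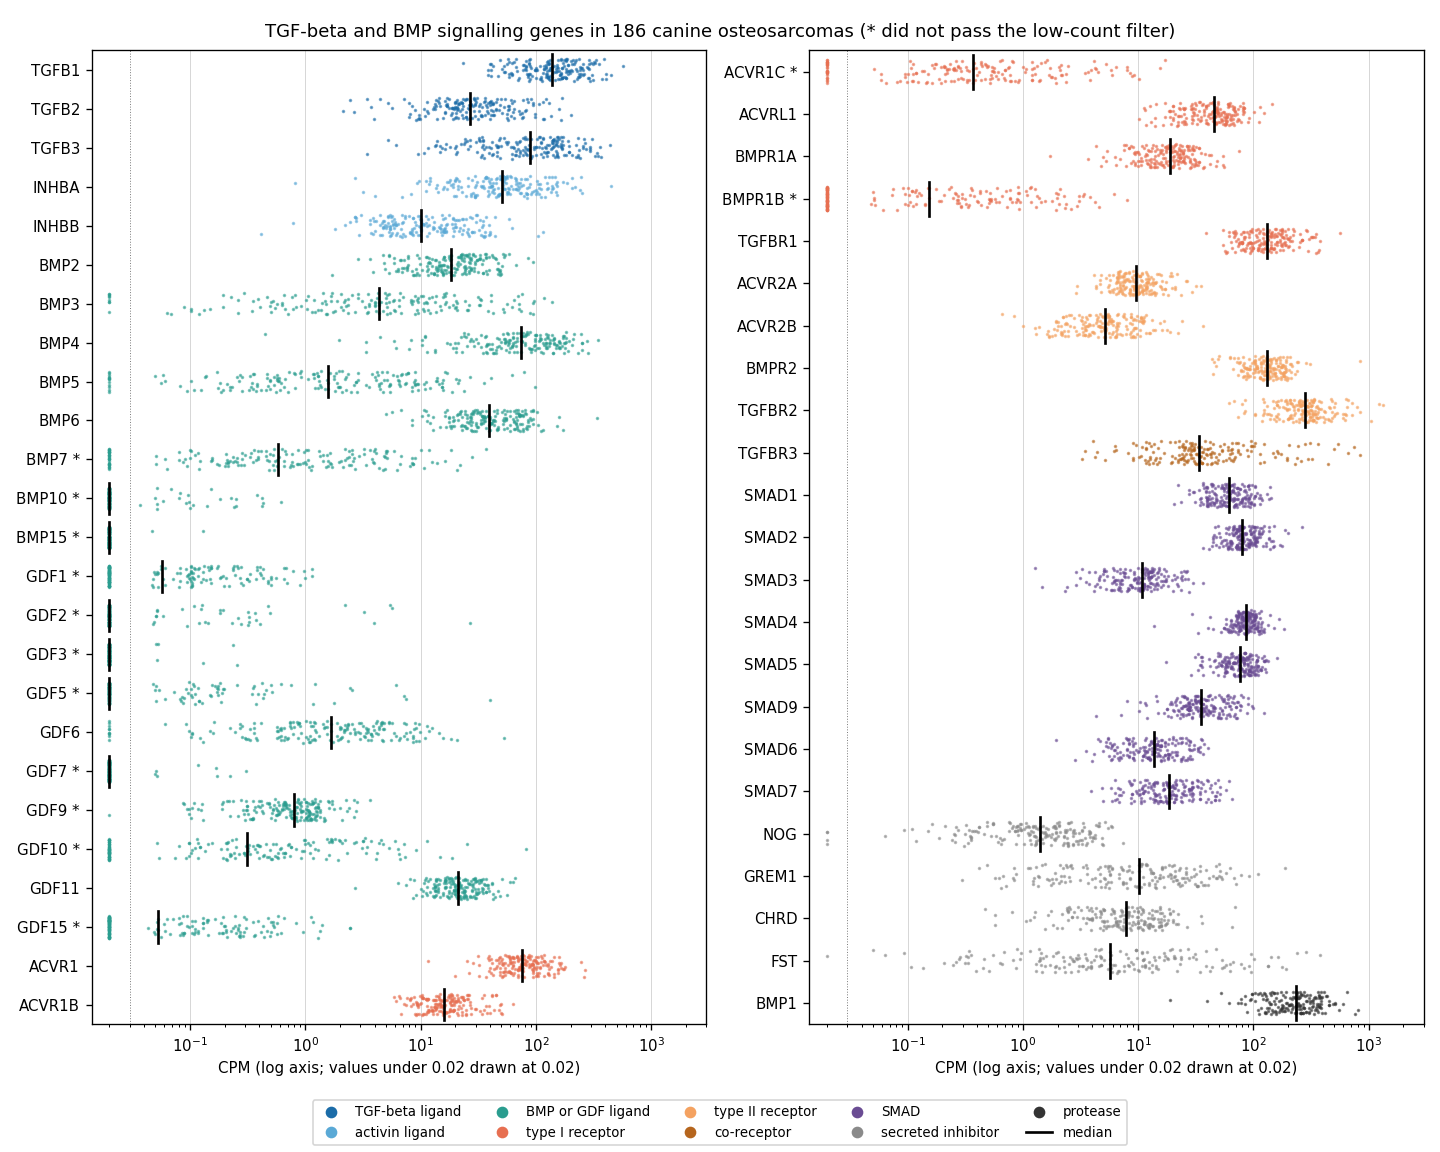
CPM of 48 of the 49 genes in 186 dogs on a log axis, 1 point per dog, coloured by role, with the median as a black bar and values under 0.02 drawn at 0.02. SMAD4, SMAD2 and SMAD5 form the narrowest clouds, BMP3, BMP5 and FST spread from near 0 to about 100 CPM or more, and BMP10, BMP15, GDF2, GDF3, GDF5 and GDF7 have their median at 0.

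Across the 35 members tested, the median SD on the log2(CPM + 2) scale was 0.72, against 0.53 over all 13422 genes. Of the 35, 9 lay in the top 10% of all genes by SD, which were TGFB2, TGFB3, INHBA, BMP3, BMP4, BMP5, TGFBR3, GREM1 and FST, and 1, SMAD4, in the lowest 10%. The highest values of the 49 members were held by 34 dogs, 26 of which held 1 each. COTC021 dog 38 had the highest BMP5, BMPR1A, ACVR2A, SMAD5 and GDF9, in a library of 9345960 counts. In the RefSeq annotation of the assembly UU_Cfam_GSD_1.0, all 49 members have a position. BMP3 lies at chr32:34764153-34792337, BMP4 at chr8:30299531-30306532, TGFB1 at chr1:113413527-113429277, TGFBR3 at chr6:57523587-57718361 and ACVRL1 at chr27:43565141-43579587. Of the 49, 12 overlap another annotated gene, among these 10 of those tested (TGFB2, INHBA, ACVR1, ACVRL1, ACVR2B, BMPR2, TGFBR2, TGFBR3, SMAD3 and SMAD6). The library kit keeps strand, but whether strand was used in counting is not given in the sources used here, so reads of these genes and their partners may have been exchanged.

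The trials were compared first, all tumors having been sampled before treatment, and no member passed the test. In limma-voom, 0 of 35 members passed an adjusted p of 0.05, and 5 had an unadjusted p under 0.05. Over all genes, 0.0149% were called higher in COTC022 and 0% lower. edgeR's quasi-likelihood test and DESeq2 also called 0 members, with 5 and 6 at an unadjusted p under 0.05. Of all 13422 genes, 1332 had an unadjusted p under 0.05 in limma-voom, 1824 in edgeR and 1799 in DESeq2. Ranges of the trials overlapped for all 49 members. SMAD3 came closest, with a median of 12.0 CPM (range 2.91 to 36.1) in COTC021 and 9.51 CPM (range 1.27 to 29.8) in COTC022, a log2 difference of -0.32 ± 0.11 (SE, adjusted p = 0.281). The receptors BMPR1A (-0.26 ± 0.11, adjusted p = 0.409) and TGFBR1 (-0.20 ± 0.09, adjusted p = 0.452) had negative values, and ACVRL1 (0.25 ± 0.11, adjusted p = 0.432) and GDF11 (0.21 ± 0.10, adjusted p = 0.446) positive ones. Medians were 141 CPM in COTC021 and 121 in COTC022 for TGFBR1, and 40.8 and 47.0 for ACVRL1. The widest difference was that of BMP3, with a log2 difference of 0.43 ± 0.39 in limma-voom but -0.45 in edgeR and -0.46 in DESeq2, and its mean was 15.7 CPM in COTC021 and 11.3 CPM in COTC022. None of the 40 other pathway genes tested was called either.

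To describe how the members vary with the makeup of the tumor, each was fitted against continuous scores, with the trial as a term. A score is the mean z-score of a list of genes in a dog, and the lists are the 27 GS-1 signature genes that the study applied, 8 osteoblast markers, 10 of 12 cartilage markers and 10 endothelial markers. No member is in any list. Changes are log2 per SD of the score over dogs, from limma-voom with Benjamini-Hochberg adjustment over all 13422 genes. The dogs were not split into groups. With so many dogs a large share of all genes passes this test, so that share is given beside each count.

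The osteoblast score was accompanied by the widest changes. BMP2, BMP3, BMP4 and BMP6 rose with it, as did TGFB1 and both inhibitory SMADs, while TGFBR3 and the activin gene INHBB fell. Of 35 members, 12 rose (34.3%, against 18.9% of all genes) and 6 fell (17.1%, against 20.4%). By role, 4 of 7 BMP and GDF ligands rose and 1 fell (GDF6). Among the SMADs, 3 of 8 rose (SMAD4, SMAD6 and SMAD7).

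BMP3 rose most, by 1.77 ± 0.20 (SE, adjusted p = 9.04e-14), which is 3.40-fold per SD. BMP4 rose by 0.88 ± 0.08 (adjusted p = 4.14e-19), or 1.84-fold. NOG, the antagonist of BMP4, rose as well, by 0.59 ± 0.10 (adjusted p = 2.6e-07). TGFB1 and BMP6 both rose by 0.57, with SEs of 0.04 and 0.06 (adjusted p = 3.05e-25 and 1.93e-15). TGFBR3 fell by 0.60 ± 0.10 on the log2 scale (adjusted p = 5.38e-07). In the plot of these 6 genes, tumors with the lowest osteoblast scores were low in BMP3, whereas tumors with high scores ranged from near the bottom of its scale to the top. Of the others called, INHBB fell by 0.55, GDF6 by 0.49 and TGFB3 by 0.36, and SMAD6 and SMAD7 both rose by 0.48.

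**Figure D2:**
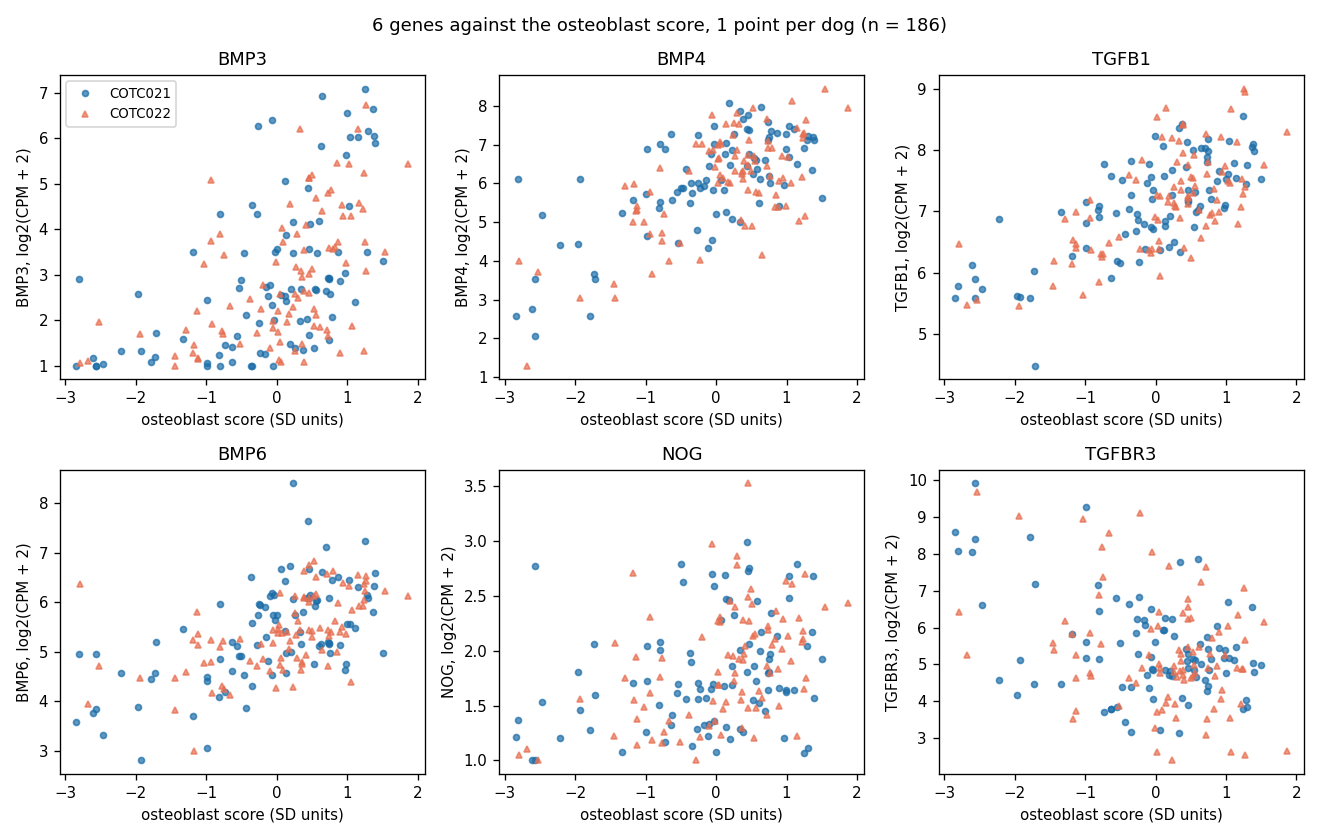
Levels on the log2(CPM + 2) scale (vertical axes) of BMP3, BMP4, TGFB1, BMP6, NOG and TGFBR3 against the osteoblast score in SD units (horizontal axes), 1 point per dog, circles for COTC021 and triangles for COTC022. BMP4, TGFB1 and BMP6 climb along the whole score, BMP3 fans out toward high scores, and the 2 highest TGFBR3 values lie at low scores.

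Osteoclast markers moved with the osteoblast score too, with 7 of 7 higher, and 5 of 6 leukocyte markers and 24 of 27 GS-1 genes were lower. With the osteoclast score added to the model, BMP3 changed by 1.71, BMP4 by 0.91, NOG by 0.70, BMP6 by 0.62, TGFB1 by 0.52 and TGFBR3 by -0.54, all called, and 21 members were called instead of 18. Of the members 40% then rose and 20% fell, against 21.4% and 21.7% of all genes. With all 4 scores in 1 model, 15 members were called. Of the members 28.6% then rose and 14.3% fell, against 15.3% and 14.7% of all genes. Fitted alone in each trial and each group of libraries, BMP3, BMP4, NOG, BMP6, TGFB1 and TGFBR3 all kept their direction and their call. There BMP3 ranged from 1.30 in the marked libraries to 2.04 in the others, BMP4 from 0.86 to 0.92, TGFB1 from 0.47 to 0.60, BMP6 from 0.42 to 0.62, NOG from 0.47 to 0.75 and TGFBR3 from -0.70 to -0.54. Among other genes of the pathway, 10 of 40 tested rose and 11 fell. The largest changes were those of SOST, the osteocyte inhibitor sclerostin, at 2.47 ± 0.21 (adjusted p = 4.58e-21), of CHRDL1, a relative of CHRD, at -1.72 ± 0.18 (adjusted p = 2.06e-15), and of BAMBI, a decoy receptor, at 1.08 ± 0.07 (adjusted p = 3.85e-34). Of 7 textbook target genes, ID1, ID2, ID3 and CCN2 rose and TGFBI fell.

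With the GS-1 score, every member that rose was a receptor or co-receptor (TGFBR1, TGFBR2, TGFBR3, ACVR1B and ACVRL1), although the receptors ACVR1 and BMPR1A fell. No ligand, SMAD or secreted inhibitor was called higher over all dogs. In all, 5 of 35 members rose (14.3%, against 22.3% of all genes) and 14 fell (40%, against 26.2%). The 14 are TGFB1, TGFB2, BMP2, BMP4, BMP6, GDF11, ACVR1, BMPR1A, SMAD4, SMAD6, SMAD7, SMAD9, NOG and BMP1. The median change was -0.12 over the members and -0.02 over all genes. Without the 2 dogs farthest out on the score, 8 members rose (22.9%, against 22.8% of all genes), with INHBB, ACVR2A and GREM1 in addition, and 12 fell (34.3%, against 19%).

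NOG changed by -0.53 ± 0.10 (SE, adjusted p = 4.61e-06) and BMP4 by -0.51 ± 0.10 (adjusted p = 6.54e-06). TGFBR3 rose by 0.49 ± 0.11 (adjusted p = 4.44e-05) and TGFBR2 by 0.30 ± 0.05 (adjusted p = 1.6e-07). SMAD9, a transducer of BMP signals, changed by -0.32 ± 0.05 (adjusted p = 4.16e-08), and BMP2 by -0.30 ± 0.07 (adjusted p = 0.000253). TGFBR1 rose by 0.30 as well. The largest rise, that of TGFBR3, was 1.40-fold per SD, and edgeR gave 0.84 on the log2 scale for it.

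The GS-1 score followed leukocyte markers closely, with all 6 tested higher and a Pearson r of 0.962 between the scores of these lists across the 186 dogs. Osteoblast markers fell with it in 5 of 8, cartilage markers in 7 of 10 and cycling-cell markers in 6 of 6, and endothelial markers rose in 8 of 10. With all 4 scores in 1 model, 12 members were called instead of 19. Of the members 11.4% then rose and 22.9% fell, against 15.6% and 15% of all genes. SMAD9 (-0.29) and TGFBR2 (0.16) remained called, whereas NOG (-0.21, adjusted p = 0.139), BMP4 (-0.18, adjusted p = 0.0834), TGFBR3 (0.22, adjusted p = 0.126) and BMP2 (-0.09, adjusted p = 0.407) did not. Within the marked libraries BMP4 was not called (-0.43, adjusted p = 0.0737), and within the others NOG (-0.31, adjusted p = 0.0606) and BMP2 (-0.18, adjusted p = 0.136) were not. BMP2 was also not called within COTC021 (-0.17, adjusted p = 0.275), against -0.41 within COTC022. Among other pathway genes 7 of 40 rose and 9 fell, led by SOST at -1.10 ± 0.25 (adjusted p = 0.000117), CHRDL1 at 0.67 ± 0.20 (adjusted p = 0.00269) and BAMBI at -0.65 ± 0.10 (adjusted p = 3.06e-09).

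Along the cartilage score GREM1, TGFB3, BMP5 and INHBA rose most, and the TGF-beta receptors TGFBR1 and TGFBR2 fell. Of 35 members, 10 rose (28.6%, against 14% of all genes) and 4 fell (11.4%, against 14.6%). Those that rose were 2 of 3 TGF-beta ligands, 1 activin gene, 3 of 7 BMP and GDF ligands, SMAD9, and 3 of 4 secreted inhibitors (NOG, GREM1 and CHRD). Those that fell were TGFB1, TGFBR1, TGFBR2 and ACVR1B.

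GREM1 rose by 0.57 ± 0.11 (SE, adjusted p = 1.45e-05) and TGFB3 by 0.44 ± 0.09 (adjusted p = 9.11e-05). BMP5 rose by 0.43 ± 0.14 (adjusted p = 0.0143) and INHBA by 0.39 ± 0.09 (adjusted p = 0.000329). TGFB2 and BMP2 rose by 0.30 ± 0.08 and 0.29 ± 0.06 (adjusted p = 0.00361 and 0.000214). The tumor with the highest cartilage score also had the highest GREM1, and without the 2 dogs farthest out on the score GREM1 changed by 0.51 and was still called. The tools differed in size for GREM1 and BMP5, which edgeR put at 0.33 and 0.92, both called.

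Fewer of these calls were made in subsets of the dogs. Within the 50 marked libraries 0 members were called by limma, with 4 at an unadjusted p under 0.05, where the changes of these 6 genes ran from 0.23 for TGFB3 to 0.53 for GREM1. Of all 13422 genes, 1.97% rose and 1.97% fell within the marked libraries, and 2491 had an unadjusted p under 0.05. Within the other 136 libraries 9 members were called (20% higher and 5.71% lower, against 7.22% and 7.16% of all genes). Within each trial 7 members were called (17.1% higher and 2.86% lower). Over all genes, 5.74% rose and 5.95% fell within COTC021, and 5.52% and 5.6% within COTC022. Within COTC022, GREM1 (0.40, adjusted p = 0.102) and BMP5 (0.14, adjusted p = 0.751) were not called, and within COTC021 TGFB2 (0.23, adjusted p = 0.173) was not. No member had an interaction of the score with the trial or the library name at an adjusted p under 0.05. The score itself went with lower osteoclast markers (6 of 7), leukocyte markers (6 of 6) and GS-1 genes (21 of 27). With all 4 scores in the model these 6 members kept their calls, with GREM1 at 0.63 and TGFB3 at 0.35. Of other pathway genes, 11 of 40 rose and 2 fell. CHRDL1 rose by 0.74 ± 0.18 (adjusted p = 0.000877), TLL1, a protease related to BMP1, by 0.49 ± 0.11 (adjusted p = 0.000339) and the TGF-beta target TGFBI by 0.47 ± 0.08 (adjusted p = 9.87e-07).

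With the endothelial score, the receptors ACVRL1 and TGFBR2, the co-receptor TGFBR3 and the BMP transducer SMAD1 rose, and BMP4 and its antagonist NOG fell. In all, 8 of 35 members rose (22.9%, against 18.4% of all genes) and 5 fell (14.3%, against 18.7%). The 8 also hold TGFB3, BMP5, INHBB and CHRD, and the 5 hold TGFB2, SMAD9 and BMPR1A. With all 4 scores in 1 model 8 members were called higher (22.9%, against 13.4% of all genes) and 1 lower (2.86%, against 12.7%). The 1 called lower was BMP4, at -0.35. BMP4 was likewise the only one called lower within COTC021 (4.66% of all genes lower) and within the 136 other libraries (11.7%). NOG was not called in any of these (-0.11, -0.25 and -0.11, adjusted p = 0.355, 0.277 and 0.541).

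TGFBR3 rose by 0.61 ± 0.11 (SE, adjusted p = 8.28e-07) and ACVRL1 by 0.51 ± 0.04 (adjusted p = 1.67e-23). TGFBR2 rose by 0.39 ± 0.05 (adjusted p = 2.01e-12), and TGFB3 by 0.32 ± 0.10 (adjusted p = 0.00473). BMP5 rose by 0.54 ± 0.18 (adjusted p = 0.00956), and BMP4 changed by -0.48 ± 0.10 (adjusted p = 1.89e-05). SMAD1, next in size, rose by 0.28. BMP5 changed by 0.07 in edgeR and in DESeq2 (adjusted p = 0.771 and 0.752), so its rise depended on the tool.

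Mural-cell markers rose with this score in 5 of 5, skeletal muscle markers in 7 of 8, leukocyte markers in 6 of 6 and GS-1 genes in 24 of 27, while cycling-cell markers fell in 6 of 6. With muscle and mural-cell scores added, 7 members were called instead of 13. Of the members 8.57% then rose and 11.4% fell, against 6.76% and 3.99% of all genes. ACVRL1 (0.36, adjusted p = 2.33e-10) and TGFBR2 (0.26, adjusted p = 0.000274) kept their calls, TGFBR3 changed by 0.05 (adjusted p = 0.817), and BMP4 (-0.27, adjusted p = 0.127), TGFB3 (0.18, adjusted p = 0.369) and BMP5 (0.31, adjusted p = 0.405) lost theirs. ACVRL1 was called in each trial and each group of libraries, from 0.44 to 0.57, TGFBR2 from 0.34 to 0.42, TGFBR3 from 0.44 to 0.91 and BMP4 from -0.62 to -0.40. Within COTC021 5 members were called (11.4% higher and 2.86% lower, against 8.05% and 4.66% of all genes). Within the 136 other libraries 6 were called (14.3% higher and 2.86% lower, against 12.7% and 11.7%). TGFB3 was called in neither (0.28, adjusted p = 0.189, and 0.25, adjusted p = 0.111). BMP5 was not called within COTC021 (0.20, adjusted p = 0.658) or the marked libraries (0.44, adjusted p = 0.372). Other pathway genes were called higher in 10 of 40 and lower in 2. CHRDL1 rose by 1.01 ± 0.24 (adjusted p = 0.000387), LRRC32, which holds latent TGF-beta on the cell surface, by 0.72 ± 0.08 (adjusted p = 1.5e-14) and TLL1 by 0.62 ± 0.12 (adjusted p = 2.48e-05). ENG, a co-receptor of endothelial cells that is no part of the score, rose by 0.43.

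**Figure D3:**
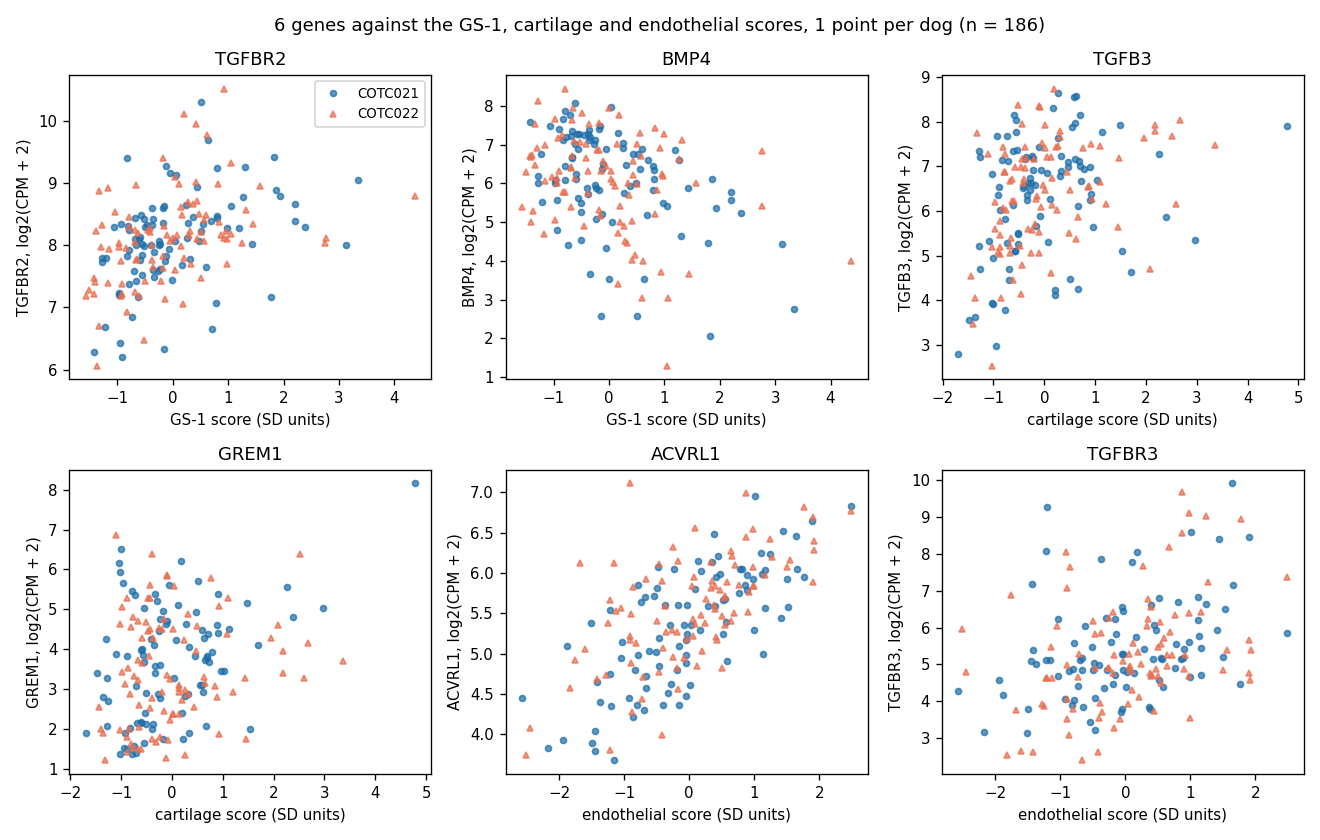
Levels on the log2(CPM + 2) scale (vertical axes) of TGFBR2 and BMP4 against the GS-1 score, TGFB3 and GREM1 against the cartilage score, and ACVRL1 and TGFBR3 against the endothelial score, each in SD units (horizontal axes), 1 point per dog. ACVRL1 forms the tightest band, the highest BMP4 values lie at low or middle GS-1 scores, and 1 dog stands alone at the upper right in the GREM1 panel.

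Seen over the 4 scores, 2 members were called with every score. TGFBR2 rose with the GS-1 and endothelial scores and fell with the osteoblast and cartilage scores, and NOG did the reverse. Another 7 were called with 3 scores (TGFB1, TGFB2, TGFB3, BMP2, BMP4, TGFBR3 and SMAD9), 14 with 2 and 7 with 1. The remaining 5 were called with none, and these are BMPR2, SMAD2, SMAD3, SMAD5 and FST. Their changes were near 0 for SMAD2, SMAD5 and BMPR2, whose largest was 0.08, whereas FST had 0.44 ± 0.21 (adjusted p = 0.0822) along the osteoblast score and -0.35 ± 0.20 (adjusted p = 0.201) along the cartilage score. The 3 TGF-beta genes took different courses. TGFB1 rose along the osteoblast score and fell with the GS-1 and cartilage scores, TGFB3 fell along the osteoblast score and rose with the cartilage and endothelial scores, and TGFB2 rose with the cartilage score and fell with the GS-1 and endothelial scores. The scores share dogs and are themselves related. The GS-1 score had a Pearson r of -0.416 with the osteoblast score, -0.299 with the cartilage score and 0.22 with the endothelial score, so their results are not independent of each other. Interactions of each score with the trial and with the library name were called for 0 members in all 8 limma fits. At most 9 of 35 members had an unadjusted p under 0.05, for the endothelial score and the library name. In that fit 1101 of 13422 genes had an unadjusted p under 0.05, and 2 genes were called.

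**Figure D4:**
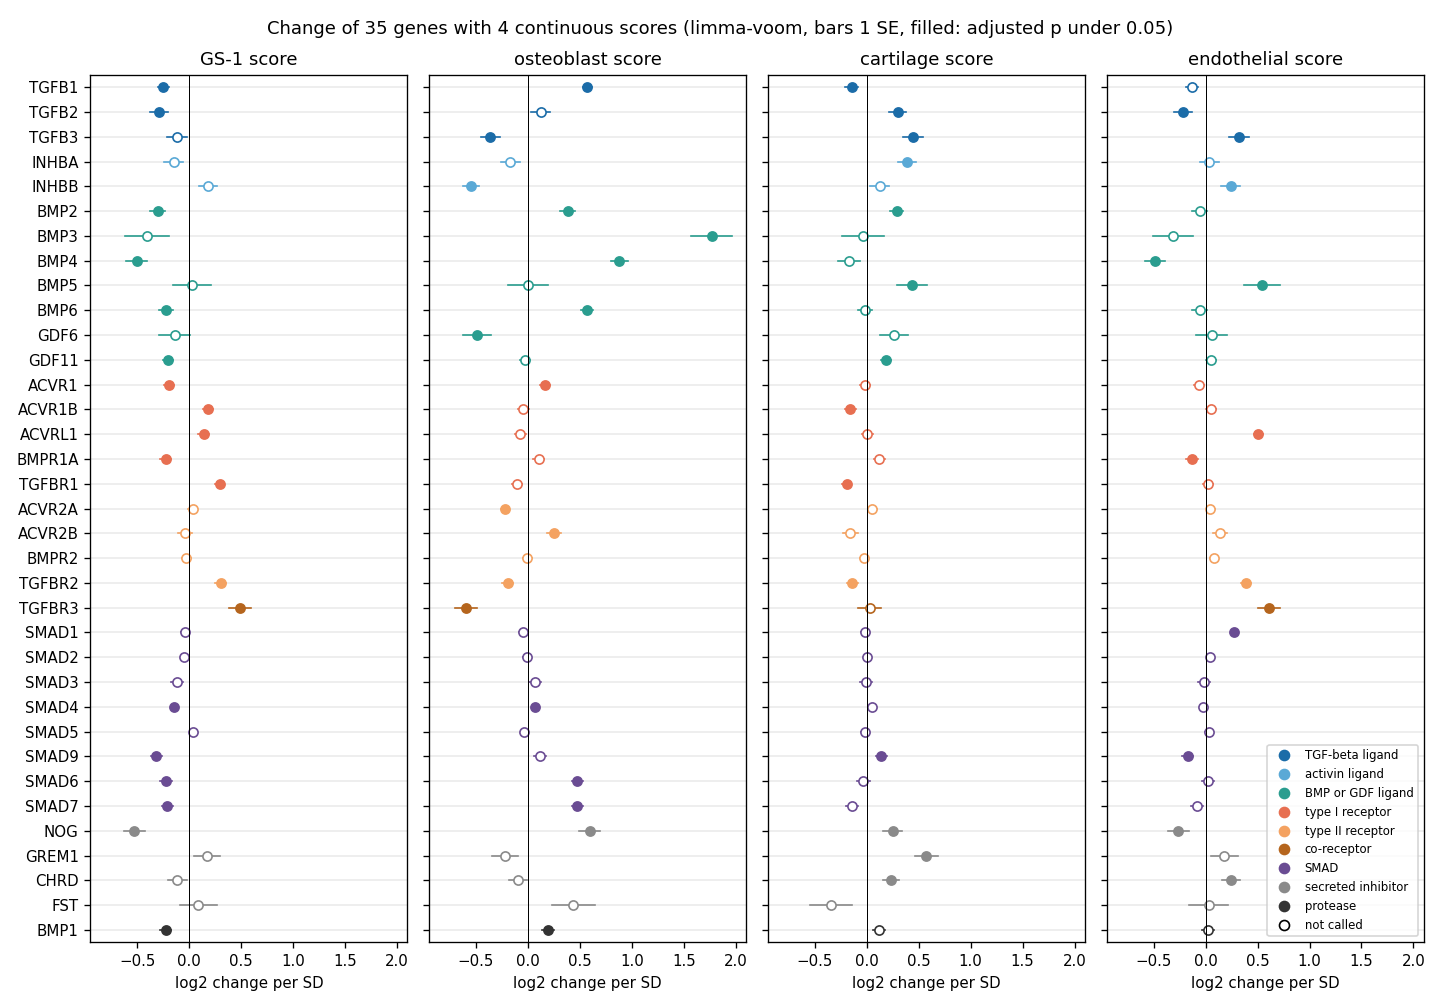
Change of the 35 tested genes in log2 per SD of each score (horizontal axes), with bars of 1 SE and filled points for an adjusted p under 0.05. BMP3 at 1.77 along the osteoblast score stands apart, TGFBR2, TGFBR3 and ACVRL1 lie to the right for the GS-1 and endothelial scores, and the rows of SMAD2, SMAD5 and BMPR2 hold open points near 0 in all 4 panels.

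Lastly, 16 pairs of members were chosen by role, such as ligand and antagonist, ligand and receptor, or close relatives, and their levels were related across the 186 dogs. By Spearman's rho, 10 pairs passed an adjusted p of 0.05 in a permutation test, 9 positive and 1 negative, and by Pearson's r 12 did, with BMP2 and BMP4 and BMP1 and CHRD in addition. The correlations held no term for the makeup of the tumor, so shared makeup and a relation of the pair itself cannot be told apart. For example, BMP2 and NOG both rose with the osteoblast and cartilage scores and fell with the GS-1 score. Among antagonists and their ligands, NOG was positively related to BMP2, while FST with INHBA and GREM1 with BMP4 did not pass. Differences between pairs were not tested.

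The closest pair was the inhibitory SMAD6 and SMAD7, with r = 0.601 and rho = 0.607 (two-sided permutation tests with 100000 resamples, p = 1e-05 for both, the smallest they can give, adjusted p = 5.33e-05 and 4e-05). It had r = 0.605 without the 2 dogs farthest from the median of SMAD6, and rho was 0.616 in the marked libraries and 0.616 in the others. The TGF-beta receptors TGFBR1 and TGFBR2 had r = 0.448 and rho = 0.488 (permutation p = 1e-05, adjusted p = 5.33e-05 and 4e-05), with r = 0.442 without the 2 farthest dogs and rho of 0.405 and 0.518 in the groups of libraries. The activin genes INHBA and INHBB had r = 0.389 and rho = 0.415 (permutation p = 1e-05), r = 0.430 without the 2 farthest dogs, and rho of 0.338 and 0.451. BMP2 and NOG had r = 0.329 and rho = 0.327 (permutation p = 2e-05 and 1e-05), r = 0.318 without the 2 farthest dogs, and rho of 0.444 and 0.265.

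TGFB1 was the negative one, with r = -0.200 and rho = -0.196 against TGFBR2 (permutation p = 0.00665 and 0.00753, adjusted p = 0.0118 and 0.0134), r = -0.232 without the 2 farthest dogs, and rho of -0.306 and -0.158 in the groups of libraries. With TGFBR1 it had rho = -0.0526 (adjusted p = 0.508). BMPR1A with BMPR2, SMAD2 with SMAD3, SMAD1 with SMAD5 and GDF5 with BMPR1B passed with rho from 0.213 to 0.277, the last of these on genes at 0 in many dogs. TGFB2 with TGFB3 passed over all dogs (rho = 0.179, adjusted p = 0.0231), with 0.00687 in the marked libraries and 0.245 in the others. Not passing were BMP4 with GREM1 (rho = -0.127, adjusted p = 0.107), INHBA with FST (0.00608, adjusted p = 0.936), GDF5 with GDF6 (0.0896, adjusted p = 0.254), BMP1 with its substrate CHRD (0.145, adjusted p = 0.0683) and BMP2 with BMP4 (0.144, adjusted p = 0.0686, with 0.354 and 0.0770 in the groups of libraries). The signs of the 10 pairs that passed were the same in both groups of libraries.

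**Figure D5:**
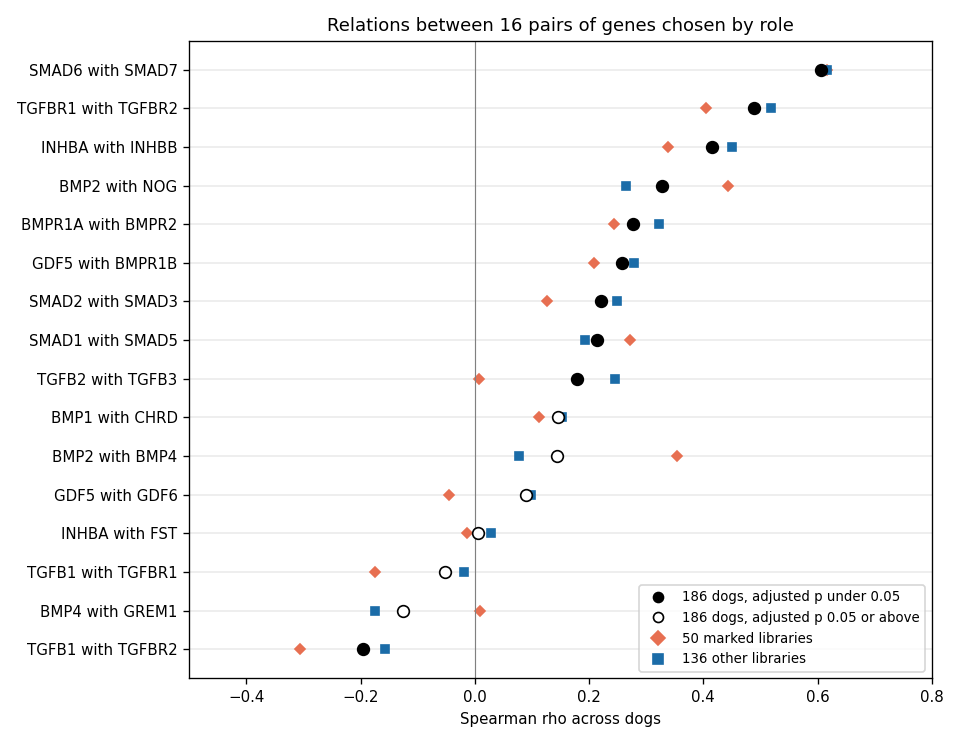
Spearman's rho across dogs (horizontal axis) for the 16 pairs, with circles for all 186 dogs (filled for an adjusted p under 0.05), diamonds for the 50 marked libraries and squares for the 136 others. The 3 marks lie together at the top for SMAD6 with SMAD7, and the diamond lies near 0 for TGFB2 with TGFB3 and to the right of the other marks for BMP2 with BMP4.

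Some members are neighbours on a chromosome. Within 1000000 bases of each other lie 7 pairs, of which 2 had both genes tested. ACVRL1 and ACVR1B are 29841 bases apart on chromosome 27 and were positively related across dogs, with r = 0.326 and rho = 0.319 (permutation p = 1e-05 and 3e-05, adjusted over both pairs p = 2e-05 and 6e-05), r = 0.350 without the 2 farthest dogs, and rho of 0.257 and 0.325 in the groups of libraries. SMAD6 and SMAD3 are 231357 bases apart on chromosome 30, and their rho was 0.123 (permutation p = 0.0931, adjusted p = 0.0931). The nearest neighbours of all, GDF2 and GDF10 on chromosome 4 with 7063 bases between them, did not pass the filter. No correlation was computed for them, so whether they vary together was not tested. Their highest values lay in different dogs. These neighbours were chosen from the annotation after the levels had been seen.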

How the data were processed

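mRNA of 186 primary canine osteosarcomas was sequenced from TruSeq stranded libraries. The authors trimmed reads with Cutadapt, mapped them to GSD_1.0 with STAR 2.7.0f and deposited RSEM 1.3.1 expected counts per gene, without normalization. Of these values, 3.07% were not whole, because shared reads are divided between genes, and all were rounded. Of 198 columns, 12 belong to no listed sample and were not used. Genes were kept with filterByExpr of edgeR 4.0.16 (10 counts, proportion 0.5, large group size 5), normalized with TMM and fitted with limma-voom 3.58.1 in R 4.3.3 at an adjusted p of 0.05. Scores used quantile-normalized log2(CPM + 2). Each score was the mean over its genes. Alternatives used edgeR's quasi-likelihood test, DESeq2 1.42.0 and subsets of dogs, and fits were tested on simulated data. Correlations used Python 3.11.15 with scipy 1.17.1. Members, lists and tests were chosen with earlier results of these data known. Members are named with their levels, except that 1 member and 1 other pathway gene are not reported here. Full statistics are given for the 6 members with the largest change among those called with each score and for the 3 largest among other pathway genes. No pair of libraries held identical values, and the highest correlation between libraries was 0.960. One library stands for each tumor, so p-values rest on the spread between dogs. Within that spread, differences between tumors and between libraries cannot be told apart. Marker lists were not tested for their part in any result beyond the models named. Sequences of members and gene lengths were not used here.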

Additional observations from a re-analysis of the deposited data

How the results depend on the processing

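Counts of members called kept within 1.5 times their value for all settings other than those given here. With all 4 scores in 1 model, 12 members were called with the GS-1 score instead of 19. Within the marked libraries, 11 were called with the osteoblast score instead of 18, and 0 with the cartilage score instead of 14. For the latter, 4 members and 2491 of all 13422 genes had an unadjusted p under 0.05 in limma. The cartilage score gave 9 within the other libraries, 7 within COTC021 and 7 within COTC022. The endothelial score gave 6 instead of 13 within the other libraries, 5 within COTC021 and 7 with muscle and mural-cell scores as covariates, an alternative chosen after seeing the data, as was the osteoclast covariate. Fewer dogs entered the fits within subsets, and the cause of the other shifts was not tested. Over all genes, 6507 were called with the GS-1 score, against 3274 to 4658 within trials or groups of libraries and 4115 with all 4 scores. With the osteoblast score 5274 were called, against 1879 to 4157 within subsets, and with the cartilage score 3841, against 529 to 1930 within subsets and 2394 with all 4 scores. The endothelial score had 4981, against 1541 to 3272 within subsets and 1443 with muscle and mural-cell scores, and edgeR's split with it was 1946 higher and 3289 lower against 2475 and 2506. Without the low-count filter 30014 genes were tested, 13196 were called with the osteoblast score (3769 higher, 9427 lower) and 27 members (13 higher, 14 lower). For the trials 0 members were called in every setting, whereas limma called 2 genes in all, edgeR 129 and DESeq2 71. Signs were compared for the members called with a score and the 6 named for the trials, not for other pathway genes. Between the trials, BMP3 turned to -0.45 in edgeR, -0.46 in DESeq2 and -0.0673 within the other libraries, and within the marked libraries GDF11 turned to -0.11 and TGFBR1 to 0.13. SMAD4 with the osteoblast score turned to -0.0144 within COTC022, and with the endothelial score CHRD and INHBB turned to -0.0783 and -0.0349 with muscle and mural-cell scores. None of these reversed values was called. No paired analysis was possible because each dog entered 1 trial and the replicate numbers only name the samples. Depth limits NOG, BMP3, BMP5, GDF6 and FST, for which 61.3% to 86.6% of dogs reached 10 counts.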
